A study of Homo sapiens with 4 samples.

Results

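The BCL2 family genes examined here are 10 of the 58735 genes in the deposited count table, and they were taken by gene name. They fall into 3 classes: the anti-apoptotic members BCL2, BCL2L1, MCL1 and BCL2A1, the effectors BAX and BAK1, and the BH3-only members BBC3, PMAIP1, BCL2L11 and BMF. All 10 names were found, and all 10 passed the filter on low counts (a mean of at least 1 CPM, reads scaled to a common library size, which kept 14585 genes). Their RNA was compared in 4 libraries of MDA-MB-231, a long-established triple-negative breast cancer line of human origin, transduced with a doxycycline-inducible histone H2B-eGFP reporter (TetOn-H2BeGFP). Every group, Bulk included, had 3 days of doxycycline at 5 μg/ml, was stained with the dyes Claret and Violet, and was chased for 12 days. Slow-cycling cells were then sorted as the brightest 1% for Claret, for eGFP or for Violet, which gave the groups Claret, eGFP and Violet. Bulk cells passed the sorter with no gate on fluorescence, so Bulk can hold slow-cycling cells too. Whether the reporter line was a single clone is not given in the sources used here. Each group is 1 library, so differences have no replicate check and every test compares the reads of 2 libraries and not 2 conditions. Groups follow the sample titles, which also name the columns of the table, but the treatment field contradicts every title. It gives Claret+ for the library titled Bulk, eGFP+ for Claret, Violet+ for eGFP and the un-gated sort for Violet, and under that reading many of the directions reported below reverse. Coordinates are GRCh38, as in the deposited table.

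The family decides whether a cell releases cytochrome c from its mitochondria, the committing step of intrinsic apoptosis. BAX and BAK1 proteins open the outer mitochondrial membrane, anti-apoptotic members hold them and their activators in a groove on their surface, and BH3-only members fill that groove or activate BAX and BAK1 directly. Breast cancer cells commonly depend on MCL1 and on BCL-xL, the main product of BCL2L1, and dependence on single members is the basis of BH3-mimetic drugs. These are properties of the proteins, and RNA levels do not measure protein or its activity.

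Summed reads ran from 15508179 to 16976909 per library, and mitochondrial genes held 4.18% of them in Bulk and 5.06% to 5.48% in the slow-cycling libraries. VIM, CD44, AXL and CAV1, markers of this mesenchymal-like line, summed to 2232 to 2477 CPM. The sum held opposite differences. In Claret, eGFP and Violet the log2 ratio to Bulk was 0.46, 0.44 and 0.34 for VIM. For CAV1 it was -0.85, -0.95 and -0.77. CD44 and AXL lay between -0.25 and 0.11. PGR had 0 reads in all 4 libraries, ESR1 3 to 7 and CDH1 0 to 3, while ERBB2 RNA was present at 89.6 to 92.2 CPM in every library. Of 5 markers of other cells, CD3E had 0 reads throughout, and the 5 summed to 3.999 (Bulk), 6.25 (Claret), 5.23 (eGFP) and 7.03 CPM (Violet). Within them the endothelial gene VWF, at 4 reads in Bulk, reached 19 to 24 elsewhere and was called higher in all 3, while PECAM1, also endothelial, had 57, 81, 54 and 87 reads and was not called, and their part in the results was not tested. 

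Promoter sequences were matched in the RefSeq table of GRCh38.p14 for 9 of the 10 genes (11 windows of 250 bases before to 50 after the start). Motifs were searched on both strands. The AP-1 site TGANTCA, searched because the series title names AP-1, is held by 7.71% of all 35116 windows of the same length and was found in BBC3. The FOXO site TGTTTAC is held by 3.42% and was found in BCL2L11. The C/EBP-ATF composite site TGATGNAA is held by 3.62% and was found in BCL2A1. The CRE site TGACGTCA is held by 1.85% and was found in none of the 11 windows. A match is a description of letters and not a measured site. The stretches below, 5′ to 3′ on the gene's strand, are the parts of 3 windows that no GENCODE 29 exon covers, with motif matches in capitals. BBC3 and BMF are shown because they had the widest differences of the BH3-only class, and BCL2L11 because it differed the other way.
BBC3, chr19:47232767-47232917, minus strand: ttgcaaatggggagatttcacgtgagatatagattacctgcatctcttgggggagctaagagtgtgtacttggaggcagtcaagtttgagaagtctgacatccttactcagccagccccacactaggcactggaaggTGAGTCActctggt
BMF, chr15:40108893-40109129, minus strand: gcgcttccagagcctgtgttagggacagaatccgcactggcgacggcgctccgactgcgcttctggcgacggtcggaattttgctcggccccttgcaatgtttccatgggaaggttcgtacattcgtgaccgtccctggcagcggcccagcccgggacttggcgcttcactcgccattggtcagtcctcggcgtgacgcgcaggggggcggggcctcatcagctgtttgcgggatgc
BCL2L11, chr2:111120664-111120913, plus strand: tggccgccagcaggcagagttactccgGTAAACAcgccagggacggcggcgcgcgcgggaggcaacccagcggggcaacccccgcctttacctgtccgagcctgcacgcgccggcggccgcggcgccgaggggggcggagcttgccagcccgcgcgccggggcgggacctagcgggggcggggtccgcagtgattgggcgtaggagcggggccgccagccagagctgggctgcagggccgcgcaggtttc
In BBC3 the match TGAGTCA began 113 bases before the RefSeq start, and in BCL2L11 the match GTAAACA began 223 bases before it. The BMF stretch, from the farther upstream of its RefSeq starts, held none of the 4 motifs.

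A gene is said here to have risen or fallen where a two-sided exact binomial test on the reads gave an adjusted p under 0.05 over the 14585 genes and the log2 ratio was at least 1 in size. BCL2A1, BBC3 and BMF rose in all 3 slow-cycling libraries, and BCL2 fell in Claret. So 3 of 10 members were called higher in each comparison, where the share of all genes called higher was 11.3% for Claret, 11.9% for eGFP and 11.3% for Violet. Members called lower numbered 1 for Claret, 0 for eGFP and 0 for Violet, beside 6.68%, 7.63% and 7.01% of all genes. By the test on reads alone, with no demand on fold, 6 members were higher and 4 lower in each library. That rule marks 33.4%, 34.0% and 33.9% of all genes higher in the same order of libraries, and 35.4%, 36.0% and 35.4% lower, so at this depth it separates small differences. The 3 comparisons share the Bulk library and are not independent. In sorted bulk RNA, fewer cells that express a gene and less of its RNA per cell cannot be told apart.

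**Figure D1:**
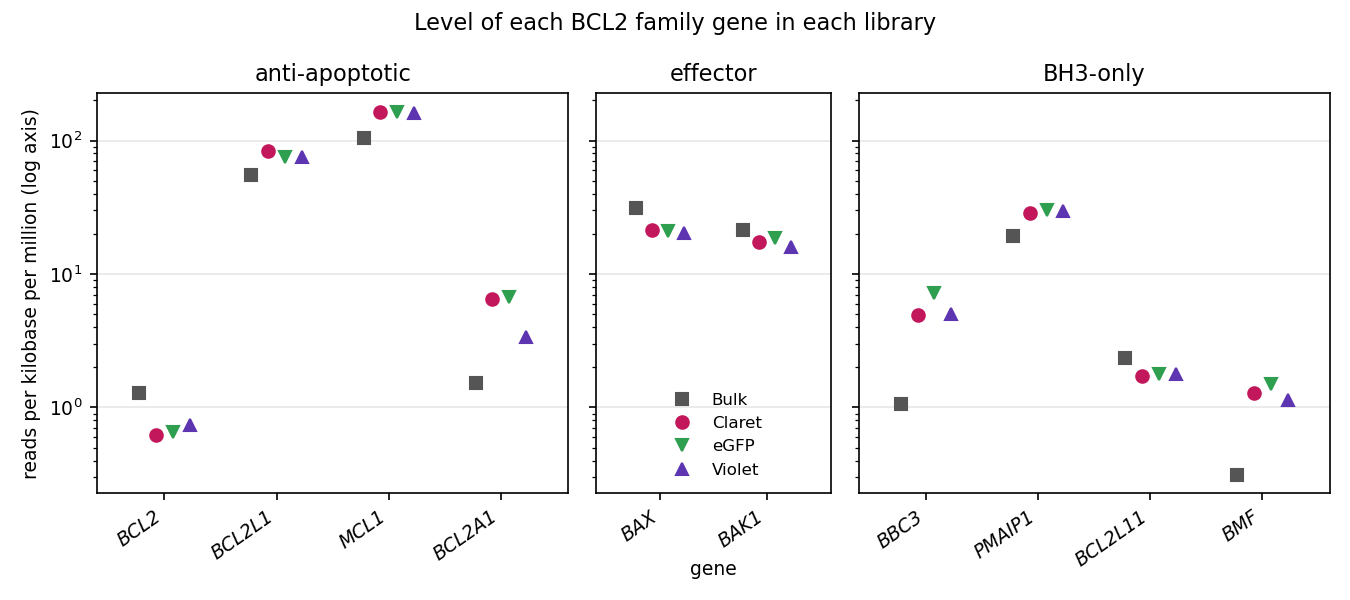
Level of each gene in RPKM, on a log axis, in the 4 libraries, by class; each point is 1 library. MCL1 and BCL2L1 lie above all other members, and Bulk is the lowest point for 6 genes and the highest for BCL2, BAX, BAK1 and BCL2L11.

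Among the anti-apoptotic genes, MCL1 and BCL2L1 carried almost all of the RNA. MCL1 (ENSG00000143384, chromosome 1, 150574551 to 150579738), whose protein is short-lived and binds NOXA and BIM, was counted at 7218 reads (Bulk), 12198 (Claret), 11421 (eGFP) and 11038 (Violet). Its level per length was 105 RPKM (CPM per kilobase of gene length) in Bulk and 160 to 165 in the slow-cycling libraries, which all lay above Bulk. The log2 ratio to Bulk was 0.65 for Claret (95% counting interval 0.61 to 0.69), 0.65 for eGFP (0.61 to 0.69) and 0.61 for Violet (0.57 to 0.65), below the 2-fold mark. Those values were higher than 78.8% to 80.6% of all genes.

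BCL2L1 (ENSG00000171552, chromosome 20, 31664452 to 31723989) encodes BCL-xL and, by splicing, a short pro-apoptotic form that gene-level counts do not separate. Its reads numbered 2890 (Bulk), 4700 (Claret), 3962 (eGFP) and 3939 (Violet), or 55.3, 83.6, 75.3 and 75.2 RPKM. Claret stood highest and Bulk lowest. The log2 ratio to Bulk was 0.60 (0.53 to 0.66), 0.44 (0.37 to 0.51) and 0.44 (0.37 to 0.51) in Claret, eGFP and Violet. The antisense gene ABALON covers 43.0% of the exonic bases of BCL2L1, and use of strand in counting is not given in the sources used here. ABALON itself was counted at 91 to 135 reads.

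BCL2A1 (ENSG00000140379, chromosome 15, 79960889 to 79971446) encodes BFL-1, a member induced by NF-κB in blood cells. Bulk held 26 of its reads, Claret 120, eGFP 117 and Violet 58. Violet lay between Bulk and the other slow-cycling libraries. BCL2A1 rose by a log2 ratio of 2.02 for Claret (1.48 to 2.77), 2.08 for eGFP (1.54 to 2.83) and 1.10 for Violet (0.46 to 1.88) (exact binomial test, adjusted p = 9.9e-14, 2.2e-14 and 0.0012). In Violet the interval reached below 1, and on the scale log2(FPKM + 1) the value was 0.77 and the call was lost. Of its 31-base words, 9.84% also occur in other transcripts, chiefly those of ST20.

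BCL2 (ENSG00000171791, chromosome 18, 63123346 to 63320128), the founding member and the target of venetoclax, went the other way. Bulk held 237 of its reads, Claret 125, eGFP 122 and Violet 137, with the 3 slow-cycling libraries close together and all below Bulk. BCL2 fell by 1.02 on the log2 scale in Claret (interval -1.35 to -0.71; exact binomial test, adjusted p = 1.5e-10). The values in eGFP (-0.96, -1.30 to -0.65) and Violet (-0.79, -1.11 to -0.48) did not reach 2-fold. With scaling by total counts the Claret value was -0.99, and on the scale log2(FPKM + 1) it was -0.50, so the call in Claret is lost under both.

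Per length the order within the class was MCL1, BCL2L1, BCL2A1 and BCL2 in every library. In Bulk the last 2 could not be separated, at 1.52 RPKM for BCL2A1 (exact Poisson interval 0.99 to 2.22) and 1.28 for BCL2 (1.12 to 1.45). With principal transcript lengths BCL2 held the larger share of the class in Bulk, 1.06% against 0.84% for BCL2A1. In Claret they were apart, at 6.50 (5.39 to 7.77) and 0.63 (0.52 to 0.75). MCL1 held 64.3% (Bulk), 64.5% (Claret), 66.6% (eGFP) and 66.8% (Violet) of the summed level of the class. BCL2L1 held 34.0%, 32.8%, 30.4% and 31.5%. BCL2A1 went from 0.93% of the class level in Bulk to 2.54%, 2.74% and 1.41%, and BCL2 from 0.78% to 0.25%, 0.26% and 0.31%. As a share of the reads of the class, which needs no length, BCL2 had 2.29% in Bulk (exact Clopper-Pearson interval 2.01% to 2.59%) and 0.73% in Claret (0.61% to 0.87%).

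Both effectors had fewer reads in every slow-cycling library, and neither passed the 2-fold mark. BAX (ENSG00000087088, chromosome 19, 48954815 to 48961798), a cytosolic protein that moves to mitochondria on activation, gave 1269 reads (Bulk), 938 (Claret), 864 (eGFP) and 836 (Violet). Its log2 ratio was -0.54 (-0.67 to -0.42), -0.56 (-0.69 to -0.44) and -0.60 (-0.73 to -0.48). BAK1 (ENSG00000030110, chromosome 6, 33572547 to 33580293), which sits in the mitochondrial membrane at rest, had 740, 652, 652 and 555 reads in the same order. Its log2 ratio was -0.29 (-0.44 to -0.13), -0.19 (-0.35 to -0.04) and -0.42 (-0.58 to -0.26), so BAK1 lay nearer to Bulk than BAX in each library. Of the 31-base words of BAK1, 18.0% occur in other transcripts, mainly the pseudogene BAK1P1, which was counted at 10 to 16 reads.

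**Figure D2:**
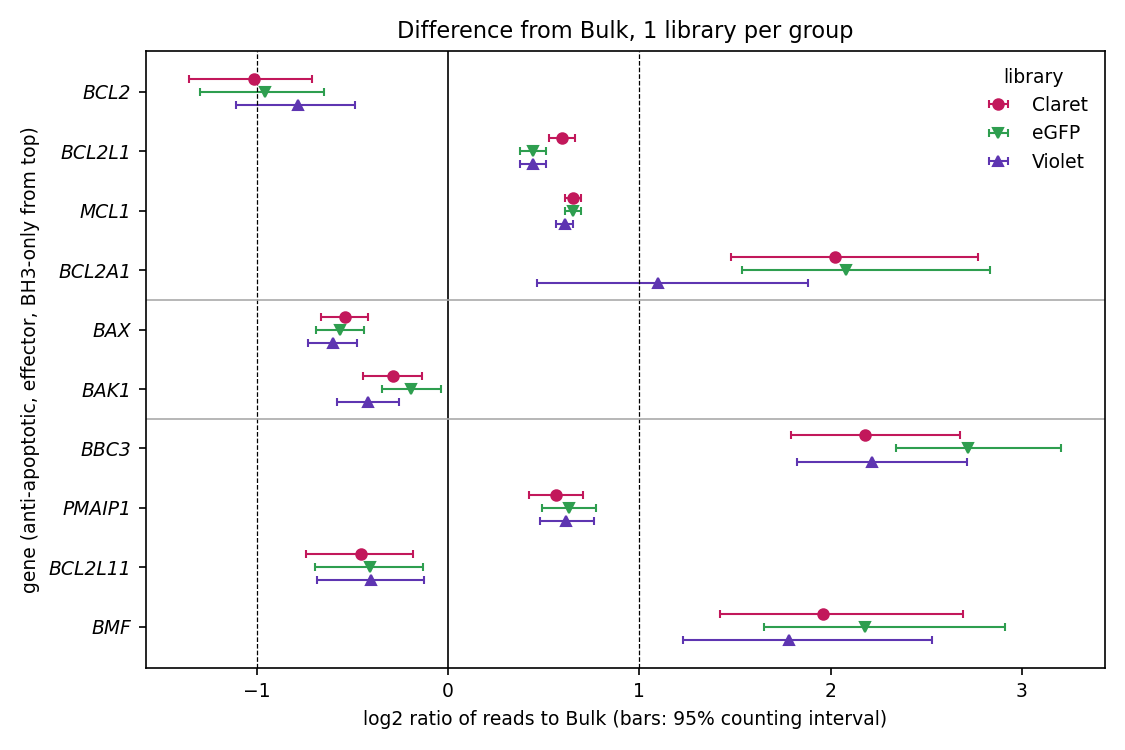
Log2 ratio of each gene to Bulk in the 3 slow-cycling libraries with its 95% exact counting interval; dashed lines mark 2-fold. BBC3, BMF and BCL2A1 lie beyond 1 in all 3 libraries, and BCL2, BAX, BAK1 and BCL2L11 lie below 0.

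The BH3-only class held the member with the widest difference. BBC3 (ENSG00000105327, chromosome 19, 47220822 to 47232766) encodes PUMA, which binds every anti-apoptotic member and is a target of stress-induced factors such as CHOP. Only 53 of its reads came from Bulk, against 266 from Claret, 362 from eGFP and 254 from Violet. All 3 slow-cycling libraries lay far above Bulk, and eGFP was the highest. BBC3 rose by a log2 ratio of 2.18 for Claret (1.79 to 2.68), 2.72 for eGFP (2.34 to 3.21) and 2.22 for Violet (1.83 to 2.71) (exact binomial test, adjusted p = 2.6e-31, 3.4e-56 and 9.5e-32), or 4.53-fold, 6.57-fold and 4.65-fold. Over 98.0% of all genes had a lower ratio in each comparison. BBC3 transcripts are 69.7% GC, and with the dependence of the ratio on GC content removed the values were 1.87, 2.38 and 1.92.

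BMF (ENSG00000104081, chromosome 15, 40087890 to 40108892), a BH3-only protein tethered to the cytoskeleton through dynein light chain, gave 27 reads (Bulk), 119 (Claret), 130 (eGFP) and 98 (Violet). It rose by 1.96 (1.42 to 2.69), 2.18 (1.65 to 2.91) and 1.78 (1.23 to 2.53) on the log2 scale (exact binomial test, adjusted p = 4.0e-13, 1.0e-16 and 3.8e-10). On the scale log2(FPKM + 1), which shrinks weakly expressed genes, the differences were 0.79, 0.92 and 0.69, and the call was lost in all 3. The antisense gene BMF-AS1, which covers 8.46% of its exonic bases, had 0 reads in every library.

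PMAIP1 (ENSG00000141682, chromosome 18, 59899948 to 59904306) encodes NOXA, which binds MCL1 and BFL-1 and marks MCL1 for degradation. Its reads numbered 684 (Bulk), 1088 (Claret), 1068 (eGFP) and 1054 (Violet), a narrow group above Bulk. The log2 ratios of 0.56 (0.42 to 0.70), 0.63 (0.49 to 0.77) and 0.62 (0.48 to 0.76) were under 2-fold. They were close in size to those of MCL1.

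BCL2L11 (ENSG00000153094, chromosome 2, 111119378 to 111168447) encodes BIM, an activator of BAX and BAK1 that is induced by FOXO factors and removed after ERK phosphorylation. It was the BH3-only member with fewer reads in slow-cycling cells, at 247 (Bulk), 193 (Claret), 187 (eGFP) and 187 (Violet). The log2 ratios were -0.46 (-0.74 to -0.18), -0.41 (-0.69 to -0.13) and -0.40 (-0.69 to -0.13), not called at 2-fold. The antisense gene MIR4435-2HG, with 674 to 818 reads, covers 10.9% of the exonic bases of BCL2L11, so without known strand use its counts are uncertain.

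The class differed in make-up between libraries more than in order at the top. PMAIP1 held 83.9% of the summed level in Bulk, and 78.4% (Claret), 74.2% (eGFP) and 78.9% (Violet) after sorting for label. In Bulk BCL2L11 was next, with 2.35 RPKM (2.07 to 2.67) against 1.06 (0.79 to 1.38) for BBC3. In the slow-cycling libraries BBC3 was next, with 4.93 against 1.71 (Claret), 7.17 against 1.77 (eGFP) and 5.06 against 1.78 (Violet). By reads alone, BBC3 had 5.24% of the class in Bulk (3.95% to 6.80%) and 15.97% (14.2% to 17.8%), 20.7% (18.8% to 22.7%) and 15.9% (14.2% to 17.8%) in the others, in the order Claret, eGFP, Violet. BCL2L11 had 24.4% of the reads in Bulk (21.8% to 27.2%) and 10.7% to 11.7% in the others. The gap between these genes in the slow-cycling libraries depended on length, since BCL2L11 is 6658 bases long in the table but its principal transcript only 1522. With principal transcript lengths BCL2L11 held 29.6% of the class level in Bulk and 13.7% to 14.9% in the others, and BBC3 5.26% in Bulk and 16.8% to 21.99%. PMAIP1 then held 64.1% in Bulk, with Violet (65.7%) and Claret (65.3%) above that value and eGFP (61.2%) below it. By reads alone its share was highest in Bulk at 67.7%, above Violet (66.2%), Claret (65.3%) and eGFP (61.1%). The side of Bulk on which the PMAIP1 share of Claret and Violet lay thus depended on the measure. For eGFP it was lower in each.

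The 3 classes were then set against each other by their summed levels per length. The anti-apoptotic sum was 163 RPKM in Bulk and 255 (Claret), 247 (eGFP) and 239 (Violet) in the others, 1.47 to 1.57 times Bulk. The BH3-only sum was 23.2 in Bulk and 36.6, 40.6 and 37.8, 1.58 to 1.75 times Bulk. The effector sum was 52.4 in Bulk and 38.8, 39.6 and 36.3, 0.69 to 0.76 times Bulk. These sums hold the 10 genes alone. With the other BH3-only genes BAD, BID, BIK and HRK the BH3-only sum was 53.1 in Bulk and 56.6, 62.8 and 59.8, only 1.07 to 1.18 times Bulk. With BCL2L2 and BCL2L10 the anti-apoptotic sum was 1.41 to 1.495 times Bulk, and with BOK the effector sum was 0.81 to 0.88 times Bulk. A ratio of 2 sums within a library does not depend on library scaling. The BH3-only sum was 14.2% of the anti-apoptotic sum in Bulk (95% counting interval by the delta method 13.3% to 15.2%), 14.3% for Claret (13.6% to 15.1%), 16.4% for eGFP (15.6% to 17.3%) and 15.8% for Violet (14.99% to 16.7%). Only the eGFP interval lay clear of that of Bulk, and with principal transcript lengths it no longer did (18.3% in Bulk, 17.1% to 19.5%, and 19.7% in eGFP, 18.7% to 20.7%), while Claret was then at 17.0% (16.1% to 17.9%), overlapping Bulk. Without PMAIP1 the ratio was 2.29% in Bulk and 3.11% (Claret), 4.22% (eGFP) and 3.33% (Violet) otherwise. With principal lengths it was 6.56% in Bulk (5.87% to 7.34%) and 5.90%, 7.63% and 6.42%, each with an interval that overlapped that of Bulk. Claret and Violet thus changed side of Bulk with the lengths used, while eGFP lay above Bulk with both. Without MCL1 the ratio was 39.8% in Bulk (36.9% to 42.9%), 40.4% for Claret (38.1% to 42.8%), 49.0% for eGFP (46.2% to 52.0%) and 47.7% for Violet (44.9% to 50.6%), the last 2 clear of Bulk. With principal lengths and without MCL1, Bulk was at 47.1% (43.8% to 50.6%). There eGFP stayed clear of it at 54.4% (51.4% to 57.6%), while Violet at 52.0% (49.0% to 55.1%) did not. In the widened classes the ratio went the other way, at 29.9% in Bulk (28.5% to 31.5%) and 21.3% for Claret (20.4% to 22.3%), 24.3% for eGFP (23.2% to 25.4%) and 23.9% for Violet (22.8% to 25.03%). The position of this ratio relative to Bulk therefore depends on which genes are counted. Overlap of intervals is no test of a difference, and ratios with overlapping intervals may still differ.

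Relative to the anti-apoptotic sum, the effectors stood lower in every slow-cycling library. Their sum was 32.1% of the anti-apoptotic sum in Bulk (30.6% to 33.7%) and 15.2% (14.4% to 15.99%), 16.01% (15.2% to 16.9%) and 15.2% (14.4% to 16.1%) in the others, in the order Claret, eGFP, Violet, 0.47 to 0.50 times the Bulk ratio. Principal transcript lengths gave 64.9% in Bulk and 29.6%, 30.6% and 29.9%, and leaving MCL1 out gave 90.1% and 42.7%, 47.9% and 45.8%, so the step from Bulk was present in both. In the widened classes it was smaller, at 37.4% in Bulk and 21.9%, 22.6% and 21.4%. The BH3-only sum relative to the effector sum was 44.2% in Bulk (40.9% to 47.8%) and 94.5%, 102% and 104% in the slow-cycling libraries, and with principal lengths 28.2% and 57.5%, 64.2% and 62.6%. PMAIP1 dominates that numerator. Without it the ratio was 7.12% in Bulk and 20.5%, 26.4% and 21.9%, and in the widened classes 80.1% in Bulk and 97.2%, 107% and 112%.

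**Figure D3:**
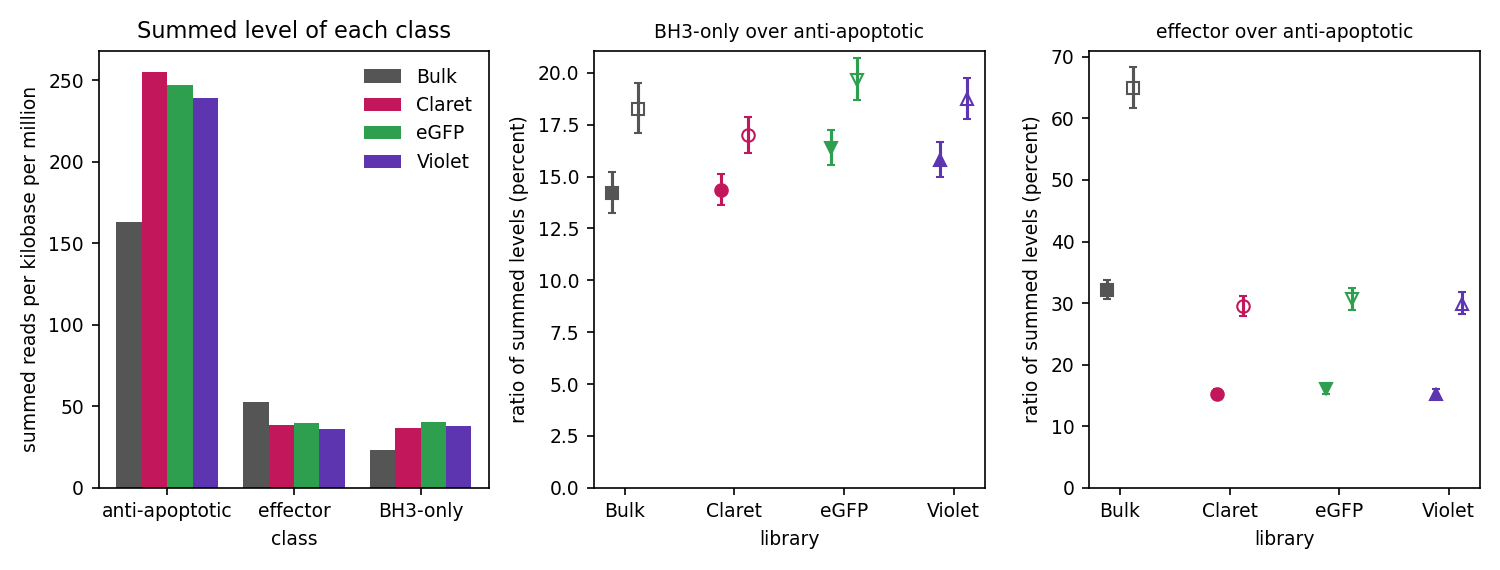
Left, summed RPKM of each class in each library. Middle and right, the BH3-only and the effector sum as a percent of the anti-apoptotic sum in each library, with 95% counting intervals, from gene lengths (filled) and principal transcript lengths (open). The effector ratio is 32.1% in Bulk and 15.2% to 16.01% in the others, and the BH3-only ratio 14.2% to 16.4%, both from gene lengths; from principal transcript lengths the BH3-only ratio is 17.0% to 19.7%.

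Against all 14585 genes, whose median log2 ratio was -0.01 for Claret, -0.01 for eGFP and 0.00 for Violet, the medians of the classes differed in sign. The anti-apoptotic median was 0.62, 0.55 and 0.53, the effector median -0.41, -0.38 and -0.51, and the BH3-only median 1.26, 1.40 and 1.20, over 4, 2 and 4 genes. Within these members, neither the anti-apoptotic nor the BH3-only class was uniform, as each held 1 gene below 0 in every comparison (BCL2 and BCL2L11). The medians cover the 10 members alone, and in Claret the BH3-only median lay between PMAIP1 at 0.56 and BMF at 1.96. Of the other tested BH3-only genes, BAD (-0.61, -0.58 and -0.51) and BID (-0.53, -0.27 and -0.47) lay below 0 throughout. BIK had -0.09, 1.16 and 0.81. BCL2L2 (-0.53, -0.41 and -0.44) and BOK (0.48, 0.43 and 0.30) were opposite in sign to the medians of their classes.

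**Figure D4:**
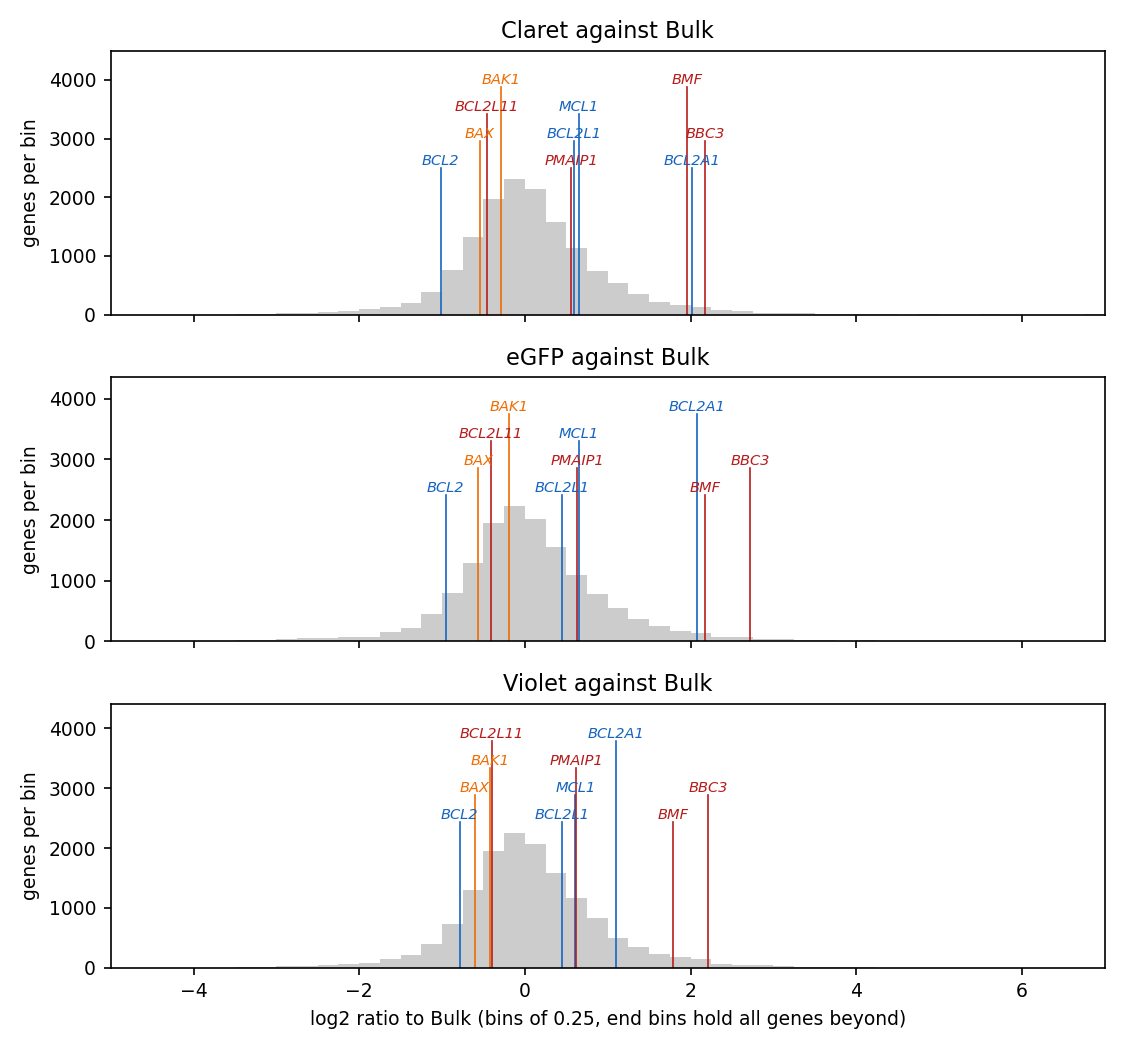
Distribution of log2 ratios to Bulk over the 14585 genes (grey, genes per bin of 0.25) with the 10 members marked (blue anti-apoptotic, orange effector, red BH3-only). In each library BBC3, BMF and BCL2A1 lie in the upper tail and the effectors lie left of 0.

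The slow-cycling libraries were also compared with each other. By the call rule 0 of 10 members differed in any of the 3 pairs, beside 0.761% of all genes for Claret and eGFP (0.315% higher in Claret, 0.446% lower), 0.816% for Claret and Violet (0.24% higher in Claret, 0.576% lower) and 1.01% for eGFP and Violet (0.288% higher in eGFP, 0.727% lower). By the test on reads alone, BCL2A1 was lower in Violet than in Claret (log2 ratio of Claret to Violet 0.92, 0.48 to 1.42; exact binomial test, adjusted p = 0.00055) and than in eGFP (0.98, 0.54 to 1.49; adjusted p = 2.0e-04). With the GC correction the value for eGFP against Violet was 1.01 and was called. BBC3 was higher in eGFP than in Violet by 0.50 (0.27 to 0.74; exact binomial test, adjusted p = 3.5e-04), and Claret lay below eGFP at -0.54 (-0.77 to -0.31; adjusted p = 1.3e-04). BCL2L1 was higher in Claret by 0.15 than in eGFP (0.09 to 0.21) and in Violet (0.09 to 0.21). BAK1 was higher in eGFP than in Violet by 0.22 (0.06 to 0.39; exact binomial test, adjusted p = 0.042). That BAK1 difference did not pass the exact binomial test with total counts, no filter or the GC correction (adjusted p = 0.081, 0.16 and 0.13). For the other 6 members no pair passed the test on reads, though a missed threshold does not show that the libraries are alike. Their precision differed by depth: the interval for MCL1 between Claret and eGFP was -0.04 to 0.04, and that for BCL2 between Claret and Violet -0.60 to 0.13. With DESeq2 size factors, unlike the main scaling, MCL1 passed the exact binomial test against Violet. Its log2 ratio was then 0.064 for Claret (adjusted p = 0.0069) and 0.056 for eGFP (adjusted p = 0.026). Under the test on reads alone, 6.14% of all genes were higher and 6.42% lower in Claret than in eGFP. Relative to Violet the shares were 9.67% and 7.88% for Claret, and 9.47% and 7.93% for eGFP.

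Of 56 further genes around the family, in 6 lists, 52 passed the filter, of which 2 rose and 4 fell in all 3 slow-cycling libraries, beside 8.38% and 4.92% of all genes. Among 12 other BCL2 family genes, 8 were tested and none was called in all 3. BCL2L12, an atypical member, gave 955 reads (Bulk), 520 (Claret), 485 (eGFP) and 382 (Violet). It fell by 1.32 on the log2 scale in Violet, and its values of -0.98 in Claret and -0.99 in eGFP passed 2-fold with DESeq2 size factors and with the GC correction. BIK, another BH3-only gene, had 10, 10, 25 and 19 reads and rose by 1.16 in eGFP, a call lost with no filter on low counts and on the scale log2(FPKM + 1). The list median was -0.53, -0.34 and -0.42 in Claret, eGFP and Violet. The anti-apoptotic BCL2L2 (BCL-w) and the BH3-only BID and BAD had values between -0.61 and -0.27, none called. BAD stood at 23.1 RPKM in Bulk, where PMAIP1 had 19.4, and at 15.1 to 16.2 in the others. BNIP3 lay between -0.54 and -0.39. BOK, an effector-like member, lay on the other side, at 14.0 RPKM in Bulk and 17.1 to 19.4 in the others (0.48, 0.43 and 0.30), unlike BAX and BAK1. BCL2L13 had values of 0.06 to 0.18.

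Downstream of the family, CYCS, which encodes the cytochrome c that the pore releases, fell in all 3 libraries, from 3651 reads (Bulk) to 1759 (Claret), 1459 (eGFP) and 1307 (Violet; log2 ratios -1.16, -1.33 and -1.48). It was the only gene called of the 10 in the list of the apoptosome and caspases, whose medians were -0.29, -0.42 and -0.36. APAF1, which cytochrome c assembles into the apoptosome, had values of -0.95, -0.98 and -0.93 (called lower in eGFP with DESeq2 size factors, at -1.01), and CASP9, its initiator caspase, 0.56, 0.39 and 0.54. DIABLO, an antagonist of inhibitors of apoptosis, had 35 reads in Bulk, against 57 to 66 elsewhere, under the identifier used, 1 of 2 rows with that name. Of the 5 inhibitors of apoptosis, BIRC5 (survivin, which also acts in mitosis) fell from 2841 reads to 478, 272 and 410, with log2 ratios of -2.67, -3.39 and -2.79. XIAP had log2 ratios of 0.09 to 0.14.

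In the death receptor pathway 0 of 10 genes were called in all 3 libraries, and the medians were 0.18, -0.02 and 0.08. FAS fell in eGFP (-1.17), where its reads numbered 40, against 92 (Bulk), 66 (Claret) and 52 (Violet), a call lost on the scale log2(FPKM + 1) at -0.59. TNFRSF10B, the TRAIL receptor DR5 and a CHOP target, had values of 0.84, 0.83 and 0.79. Among 11 transcription factors known to act on members, ATF4 rose from 3629 reads to 14198, 12544 and 11767 (1.86, 1.78 and 1.69). DDIT3, which encodes CHOP, rose from 101 reads to 541, 510 and 426 (2.29, 2.30 and 2.05). E2F1 fell from 1478 reads to 383, 232 and 258 (-2.05, -2.67 and -2.51), and TP73 from 107 to 56, 33 and 42 (-1.01, -1.65 and -1.31). In Claret the TP73 value under total-count scaling was -0.99, and on the scale log2(FPKM + 1) its values were -0.44, -0.63 and -0.54 with no call. FOXO1 and FOXO3 had values of 0.23 to 0.51. Of the 11 factors, 5 lay above 0 and 6 below in each library, and the medians were -0.45, -0.37 and -0.40. None of the 8 protein partners and turnover factors was called, and their values ran from -0.47 for HUWE1, a ligase of MCL1, in Claret to 0.36 for FBXW7 in Violet. MARCHF5, an MCL1 and NOXA regulator matched by its identifier because its symbol stands as a date in the table, had values of 0.13 to 0.17.

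**Figure D5:**
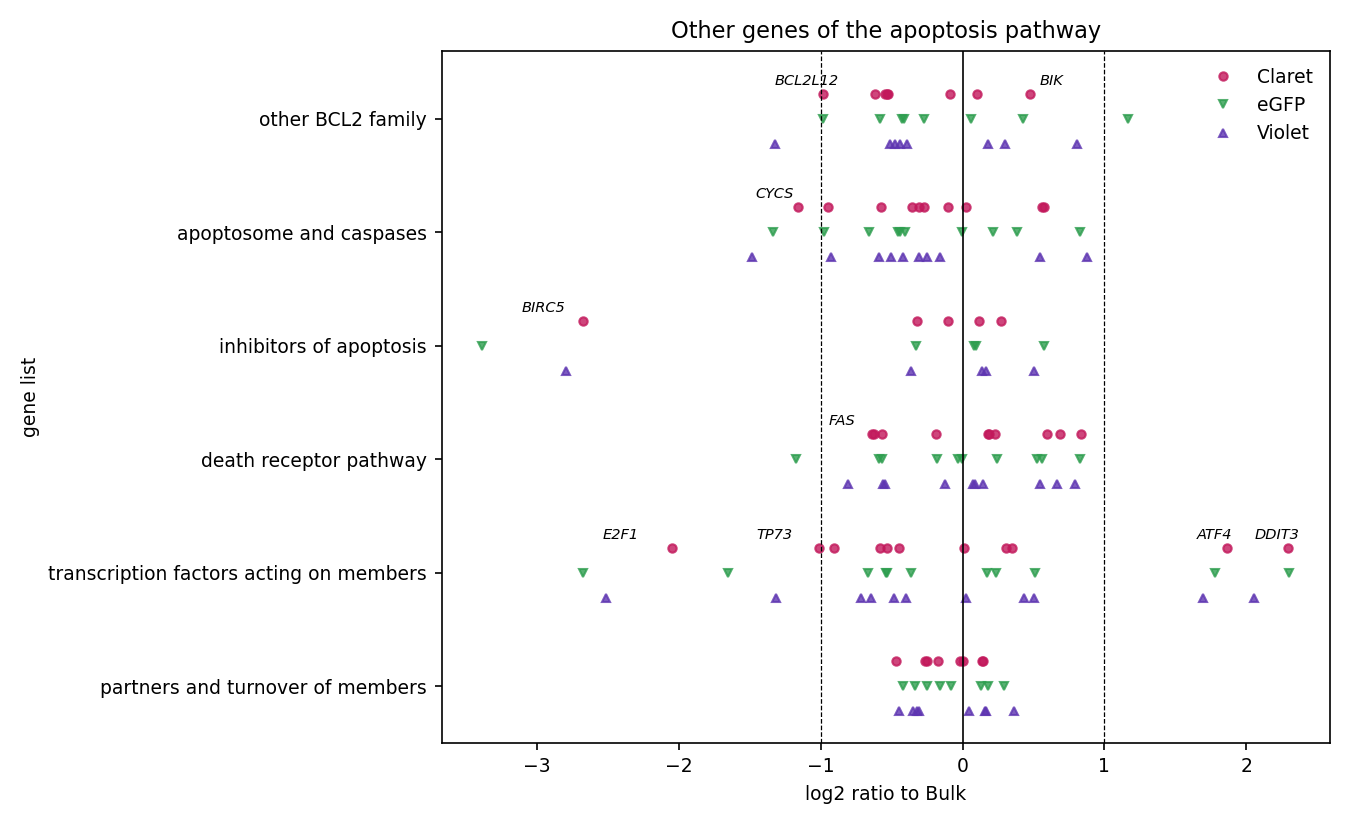
Log2 ratio to Bulk of the 52 tested genes of the 6 lists in each slow-cycling library; dashed lines mark 2-fold and named genes were called in at least 1 library. ATF4 and DDIT3 lie right of 1 in all 3, and BIRC5, E2F1, CYCS and TP73 lie left of -1.

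For the 7 members with a mean of at least 10 CPM, the protein-coding genes of most similar pattern were found by the root-mean-square distance of log2 CPM, centred over the 4 libraries, among 9755 genes. BCL2L11 lay nearest to FUBP3 and CCDC85C (0.0022 and 0.0028), PMAIP1 to GLG1 and STAT2 (0.0074 and 0.012), and BAX to DNAAF5 and TENT4B (0.0089 and 0.0094). BCL2L1 lay nearest to FAM171A2 and CHP1, BAK1 to SMYD5 and FDPS, and MCL1 to POLR1D and ITM2C, at 0.014 to 0.016. BBC3 had no neighbour as close, with GGT7 at 0.10 and SYT12 at 0.11. Over 98.0% of all genes lay below BBC3 in each comparison with Bulk, so few genes lie near it. The distances do not allow for counting error. For BCL2L11 in Claret the interval of the log2 ratio, -0.74 to -0.18, is far wider than its distances. Which genes lie nearest, and the order of the distances, are therefore uncertain.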

How the data were processed

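Libraries came from TRIzol-extracted RNA and a NEBNext Ultra kit, per the labels' protocols. HISAT2 2.0.5 and featureCounts 1.5.0-p3 are named in the submitters' processing notes. Settings, strand use and treatment of reads matching several genes are not given in the sources used here. The authors deposited whole-number read counts per gene with no normalization, and FPKM values per gene. Gene lengths and coordinates are as deposited, and those of the 10 members equal GENCODE 29 (GRCh38).

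Library sizes were scaled by TMM (edgeR 4.0.16, R 4.3.3) and log2 ratios used a prior count of 2. The quasi-likelihood test of edgeR cannot be fitted with 1 library per group, so reads of 2 libraries were compared by a two-sided exact conditional binomial test (scipy 1.17.1) with Benjamini-Hochberg adjustment over 14585 genes. The procedure was tested on simulated data that held counting error alone, so that test does not cover variation between cultures. Intervals are 95%, exact for single genes, and cover counting error only, since each group is 1 library. They treat each read as independent, and reads carry no molecular identifiers to check this. The text names the 10 members and, from 6 lists, genes called in at least 1 comparison. It also names, for members at 10 CPM or more, the 2 genes nearest in pattern. Other listed genes were named after their values were seen, and 1 is not reported here. The members and lists were chosen with earlier results of these data known. Alternatives were total counts, DESeq2 1.42.0 size factors, filters, prior count, FPKM, fold alone, a GC correction and the treatment field. The principal transcript lengths, the sums without MCL1 or PMAIP1 and the widened classes were chosen after seeing the data.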

Additional observations from a re-analysis of the deposited data

How the results depend on the processing

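Every member kept its direction against Bulk under total counts, DESeq2 size factors, both other filters where it was tested, a prior count of 0.5, fold alone, the GC correction and log2(FPKM + 1). A filter at 10 CPM leaves out BCL2, BCL2A1 and BMF, so that 1 member was called higher in each of Claret, eGFP and Violet and 0 lower in Claret. Total counts and log2(FPKM + 1) also left 0 members lower in Claret, and log2(FPKM + 1) kept 2 of the higher calls for Claret, 2 for eGFP and 1 for Violet. Between slow-cycling libraries the GC correction gave 1 call. With groups from the treatment field, 0 members were higher in Claret, eGFP and Violet, 3 were lower in Claret and 7 calls arose between slow-cycling libraries. The ratios to Bulk were then, in Claret, 0.79 for BCL2, -0.44 for BCL2L1, -0.61 for MCL1, -1.10 for BCL2A1, 0.60 for BAX, 0.42 for BAK1, -2.22 for BBC3, -0.62 for PMAIP1, 0.40 for BCL2L11 and -1.78 for BMF. In eGFP they were 0.063 for BAX, 0.13 for BAK1, -0.036 for BBC3 and -0.057 for PMAIP1, and in Violet 0.040 for BAX and 0.22 for BAK1. Of the 30 ratios, 16 thus reversed under the treatment field, 9 kept direction and call status and 5 kept direction but lost their call. Those 9 came to lie near 0. In eGFP they were -0.23 for BCL2, 0.15 for BCL2L1, 0.042 for MCL1 and -0.056 for BCL2L11. In Violet they were -0.17 for BCL2, 0.0014 for BCL2L1, 0.042 for MCL1, 0.012 for PMAIP1 and -0.0069 for BCL2L11. Of the 9, only BCL2L1 in eGFP passed the test on reads alone.

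The BH3-only sum as a percent of the anti-apoptotic sum was 18.3, 17.0, 19.7 and 18.7 in Bulk, Claret, eGFP and Violet with principal transcript lengths, 39.8, 40.4, 49.0 and 47.7 without MCL1, and 2.29, 3.11, 4.22 and 3.33 without PMAIP1, and 29.9, 21.3, 24.3 and 23.9 with other family genes. The treatment field gave 15.8 in Bulk and 14.3 in eGFP. The effector sum was 64.9, 29.6, 30.6 and 29.9 with principal lengths, 90.1, 42.7, 47.9 and 45.8 without MCL1, 37.4, 21.9, 22.6 and 21.4 with other family genes, and by the treatment field 15.2 in Bulk, 32.1 in Claret and 15.2 in eGFP. The MCL1 share of the anti-apoptotic level was 61.2, 61.6, 63.8 and 63.9 percent with principal lengths, and by the treatment field 66.8 in Bulk and 64.5 in eGFP. Scaling leaves these ratios unchanged by construction. Counts of 26 to 237 reads limit BCL2A1, BMF and BCL2. The ratios of BBC3 to Bulk all rest on its 53 reads there. Variation between cultures was not measured. No paired analysis was possible because each group holds 1 library.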
